A study of Mus musculus with 27 samples.

Results

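The genes described here are those best known from epithelial-mesenchymal transition: the repressors Zeb1, Zeb2, Snai1 and Snai2, the transcription factors Twist1, Twist2 and Prrx1, the intermediate filament protein vimentin (Vim) and N-cadherin (Cdh2). They were taken as rows of the deposited array table that carry a member's symbol and no other, with the row of the highest mean where a gene had several. By this rule 8 of the 9 genes had a row, out of 22180 genes with a row of their own. Zeb2 was found in 2 rows that carry several symbols and is not analysed here. Arrays were run on 27 prostate tumours, 1 from each of 27 F2 males. The cross was between TRAMP mice on C57BL/6 (C57BL/6-Tg(TRAMP)8247Ng/J) and PWK/PhJ. All 27 animals carried the transgene, in a mixed background that differs from animal to animal, and they were examined at 30 weeks or once a humane endpoint was met, so age was not the same in every animal. As general knowledge, the TRAMP transgene holds SV40 T antigens driven by the probasin promoter, which is active in prostate epithelium, and PWK/PhJ is a wild-derived strain. The tumours form a single group with no contrast between conditions and no normal prostate, and they are named by animal number, such as P966.

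In epithelial-mesenchymal transition, epithelial cells lose the junctions and polarity that E-cadherin (Cdh1), claudins and desmosomes give them and take on the shape and motility of mesenchymal cells. Zeb and Snai proteins are zinc finger repressors that bind E-box sequences near epithelial genes, the miR-200 family represses Zeb1 and Zeb2, and the Zeb proteins repress the miR-200 genes in return. The same genes are also used outside tumour cells: fibroblasts, endothelial cells and macrophages express Vim, fibroblasts express Prrx1, and neural and neuroendocrine cells can express Cdh2 and Zeb1. For this reason each member was set against the collagen genes of the tumours, whose main source in most tissues is fibroblasts. In bulk tumours, fewer cells of a type and less RNA per cell cannot be told apart.

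The miR-200 family is shown because its 4 measured members fall into 2 seed groups, which pair with different sites in target transcripts. The mature sequences from RefSeq (GRCm38.p6) are written 5′ to 3′ with the seed, bases 2 to 8, in capitals. The miR-200b and miR-200c strands share one seed, and the miR-200a and miR-141 strands share the other.
mmu-miR-200b-3p: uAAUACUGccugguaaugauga
mmu-miR-200c-3p: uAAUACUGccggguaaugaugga
mmu-miR-200a-3p: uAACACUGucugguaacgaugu
mmu-miR-141-3p: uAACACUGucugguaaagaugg
The genes of miR-200a and miR-200b lie on chromosome 4, and those of miR-200c and miR-141 on chromosome 6. The array rows are named for these genes, and the sources used here do not say which form of the RNA they detect.

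The E-box letters CACCTG, or CAGGTG read on the other strand, are the textbook site of Zeb and Snai repressors. A pair of promoters from RefSeq (GRCm38.p6) that hold several copies is shown, chosen after the copies were counted, with the copies in capitals: that of Tmem30b, a flippase subunit of epithelial cells with 4 copies, and that of Rab25, a GTPase of epithelial membrane recycling with 2 copies. Each window runs from 250 bases before to 50 bases after the gene's start and is written 5′ to 3′ along the gene.
Tmem30b, chr12:73546346-73546645, minus strand: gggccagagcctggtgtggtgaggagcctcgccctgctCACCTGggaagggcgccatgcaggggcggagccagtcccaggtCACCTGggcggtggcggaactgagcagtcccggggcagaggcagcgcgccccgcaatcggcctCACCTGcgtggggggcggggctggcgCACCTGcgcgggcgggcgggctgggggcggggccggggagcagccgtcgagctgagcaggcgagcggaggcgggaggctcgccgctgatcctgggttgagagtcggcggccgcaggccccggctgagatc
Rab25, chr3:88548230-88548529, minus strand: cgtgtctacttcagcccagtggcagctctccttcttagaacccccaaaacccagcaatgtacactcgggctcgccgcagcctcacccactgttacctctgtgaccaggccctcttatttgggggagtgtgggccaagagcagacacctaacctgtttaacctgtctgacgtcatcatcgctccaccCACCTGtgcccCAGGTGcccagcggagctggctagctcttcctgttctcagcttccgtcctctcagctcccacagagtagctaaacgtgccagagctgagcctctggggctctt
The 6 letters, searched on both strands, were present in 20.2% of all 32851 promoters of this length. In the epithelial adhesion list, 12 of the 13 genes with a promoter in the table held at least 1 copy, against 22.6% of all genes, and Cgn, which encodes cingulin, held none. None of the 6 collagen genes with a promoter held the letters, nor did 4 of the 5 members with one. They were held by 2 of 4 epithelial regulators with a promoter and by 5 of 11 neuroendocrine genes (45.5%). The arrays hold no binding data, and a match is only a run of letters.

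The deposited values are on a log2 scale, with array medians between 5.67 and 5.82. Each list was scored per tumour by centring its genes on their own means and averaging the log2 values. The collagen score, from 8 genes of types I, III, V and VI, ran from -0.92 in P509 to 1.24 in P966, with P471 next at 0.99, and formed 1 continuous group. The epithelial adhesion score, from 16 genes, split the tumours into 8 of higher and 19 of lower score. The neuroendocrine score, from 15 genes, split them into 4 of lower score (P471, P966, P425 and P1276) and 23 of higher score, and those 4 are all among the 8. Markers of other tissue were high in 3 tumours: skeletal muscle scores reached 3.36 in P219 and 2.49 in P268, and the adipose score reached 2.93 in P425. All 15 neuroendocrine, 15 of 16 adhesion, 9 of 9 endothelial and 10 of 12 macrophage genes had means above the array median, against 1 of 7 T cell genes.

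Among the zinc finger repressors, Zeb1 varied most. Its level was lowest in P1469 at 5.12, had a median of 7.50 and was highest in P311 at 8.13, a range of 8.01-fold (SD 0.85, n = 27). The tumours formed a lower cluster of 7, at 5.12 in P1469, 5.50 in P1276, 5.83 in P966, 5.98 in P569, 6.23 in P471, 6.33 in P425 and 6.40 in P902, and a higher cluster of 20 that began at 7.001 in P503. The clusters do not overlap because the values themselves defined them. The SD of Zeb1 was exceeded by 7.97% of all genes.

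Snai1 and Snai2 (Slug) differed in range. Snai1 ran from 4.69 in P311 through a median of 5.11 to 6.00 in P966 (SD 0.30), and P1276 followed at 5.81. It lay below the array median of all values, 5.75, in 25 of 27 tumours. Snai2 ran from 4.71, again in P311, through 6.31 to 7.70 in P474 (SD 0.65), with P509 at 7.26 and P500 at 7.20 next. The tumour with the highest Zeb1 therefore held the lowest level of both Snai genes. P500, next highest in Zeb1 at 8.11, went differently, with Snai1 at 5.28, above its median, and Snai2 among the highest.

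Of the basic helix-loop-helix factors, Twist1 was steady apart from a few tumours. It ran from 6.19 in P803 through 6.62 to 8.05 in P1394 (SD 0.38), with P1225 at 7.42 and P233 at 7.25 next. Twist2 lay between 4.23 in P803 and 5.56 in P425 with a median of 4.88 (SD 0.35), below the array median in 27 of 27 tumours. Prrx1, a homeobox gene of connective tissue, ran from 5.08 in P509 through 5.82 to 7.50 in P471 (SD 0.65). Next to P471 stood P966 at 7.39 and P219 at 7.14, and 11 tumours were below the array median.

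The effector genes were the brightest members on the array, though probe sets of different genes cannot be ranked by level. Vim was high in every tumour, from 9.95 in P509 through 11.1 to 11.9 in P474 (SD 0.47), with P803 at 9.96 next to the lowest. Cdh2 ran from 6.69 in P425 through 9.48 to 10.03 in P474, a range of 10.1-fold (SD 0.80). It formed a lower cluster of 3, at 6.69 in P425, 7.27 in P471 and 7.71 in P966, and a higher cluster of 24 that began at 8.65 in P219 and 8.80 in P1276. The SD of Cdh2 was exceeded by 9.16% of all genes, and the median SD of the 8 members was 0.56 against 0.30 for all genes.

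**Figure D1:**
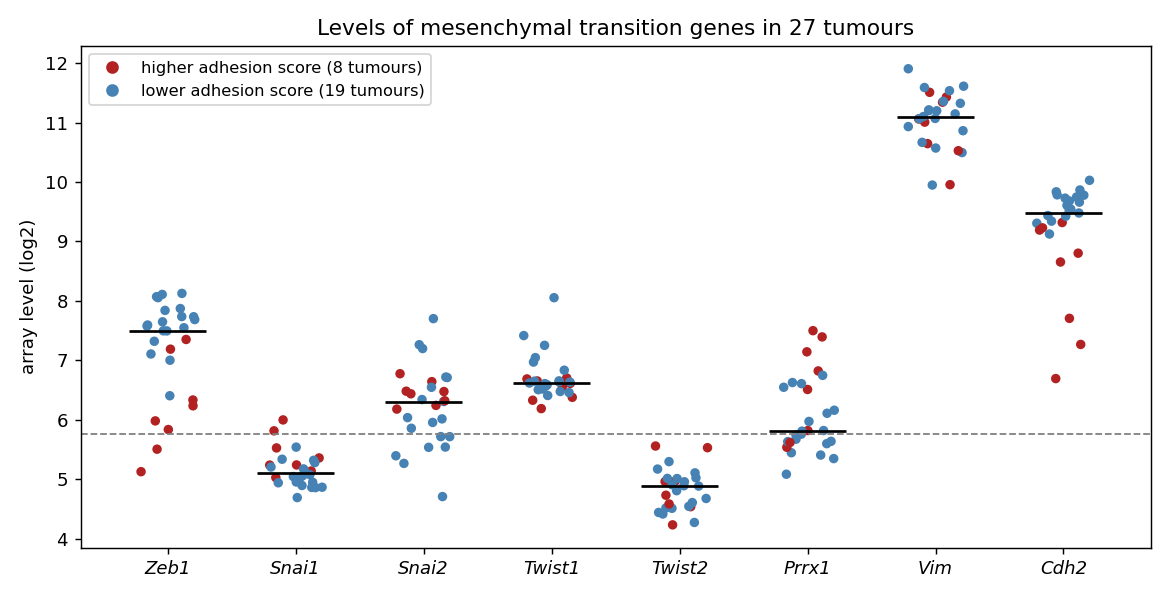
The vertical axis is the array level (log2), each point is 1 of 27 tumours, black bars are medians, the dashed line is the median of all values (5.75) and colour marks the 8 tumours of higher epithelial adhesion score. Zeb1 and Cdh2 have tails of low values made mostly of these tumours, while Vim is high throughout and Twist2 lies below the dashed line in every tumour.

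For Vim and Cdh2 a second row carried the same symbol. The 2 rows of Cdh2 followed each other closely over the 24 tumours of its higher cluster (r = 0.891, and 0.803 without the 2 tumours farthest from the median). Those of Vim did so less closely over 27 tumours (r = 0.585, and 0.617 without P509 and P803). The second Vim row was much dimmer, with a mean of 6.61 against 11.05. Values below are from the brighter row.

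How the members follow collagen was tested with limma over all genes, on the collagen score scaled to an SD of 1 (1 SD is 0.57 on the log2 scale), with Benjamini-Hochberg adjustment. A gene is said to rise or fall along a score where the adjusted p was under 0.05. Prrx1, Vim and Snai1 rose along the collagen score and Zeb1 fell, which is 3 of 8 members rising where 6.43% of all genes rose, and 1 of 8 falling where 4.34% fell. The median slope over all genes was 8.9e-04.

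Prrx1 had the steepest rise, 0.50 ± 0.08 (SE) log2 per SD of the score (adjusted p = 4.8e-04), and 2.22% of all genes had a higher slope. P471 and P966, highest in Prrx1, had the highest collagen scores, and P509 was lowest in both. Vim rose by 0.26 ± 0.08 (adjusted p = 0.026) and Snai1 by 0.19 ± 0.05 (adjusted p = 0.011). Zeb1 had the opposite slope, -0.46 ± 0.14 (adjusted p = 0.027). When the score was made from the fibroblast and matrix genes in place of the collagens, Prrx1 (0.55), Vim (0.30) and Snai1 (0.15) were still called, Zeb1 was not (-0.28, adjusted p = 0.27) and Cdh2 was (-0.46, adjusted p = 0.017).

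The other members did not pass. Cdh2 had a slope of -0.40 ± 0.13 (adjusted p = 0.0501), Twist2 one of 0.16 ± 0.06 (adjusted p = 0.076) and Snai2 one of 0.22 ± 0.12 (adjusted p = 0.26). Twist1 had a slope of -0.09 ± 0.07 (adjusted p = 0.49). The tumours of the 2 highest collagen scores, P966 and P471, are among the 3 of the lower Cdh2 cluster.

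**Figure D2:**
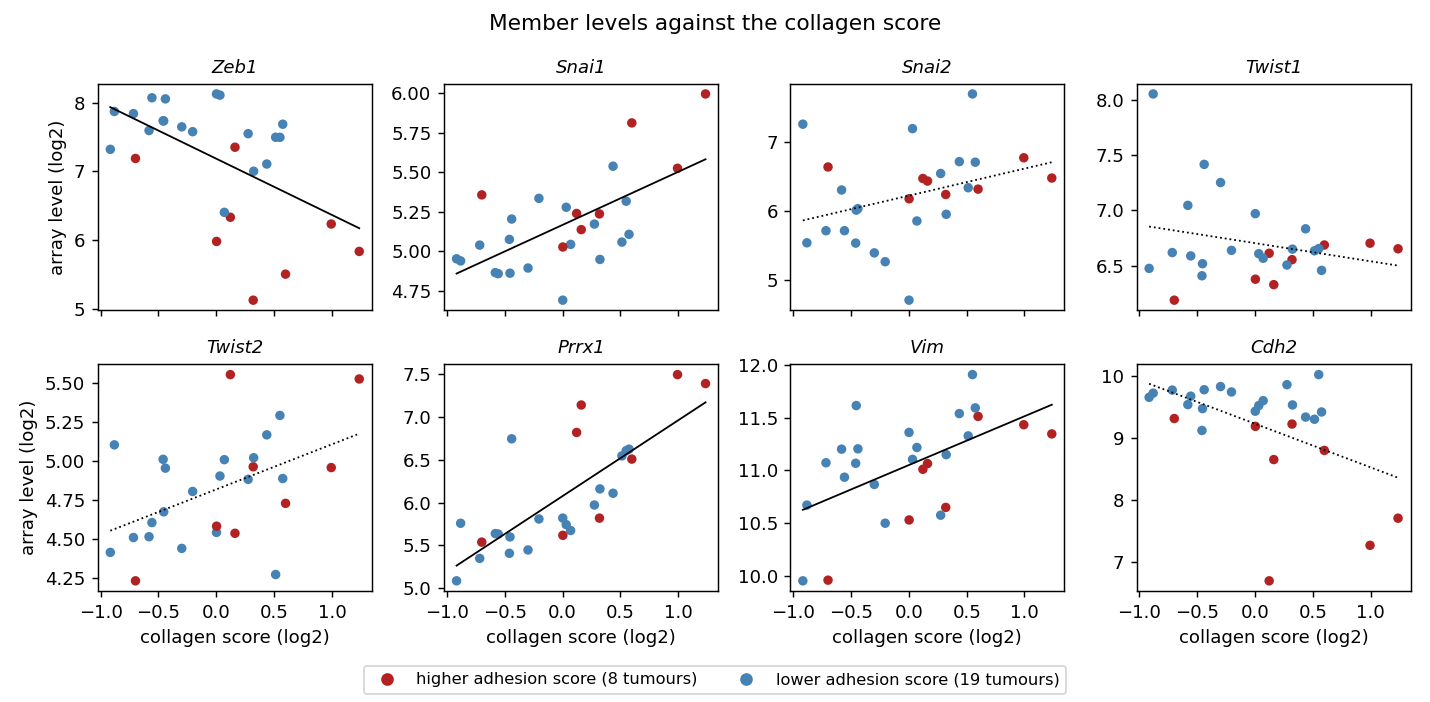
The horizontal axes are the collagen score (log2), the vertical axes the array level of each member (log2), points are 27 tumours coloured by epithelial adhesion cluster, and lines are the fitted slopes, solid where the adjusted p was under 0.05. The highest Prrx1 values are those of P471 and P966, which have the highest collagen scores, while the low values of Zeb1 and Cdh2 are mostly the tumours of higher adhesion score.

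These calls leaned on few tumours. Prrx1 kept its call in each of the 27 fits that left out 1 tumour (slopes of 0.44 to 0.54, adjusted p of at most 0.0050). Zeb1 lost it without P966, P471 or P1276 (adjusted p up to 0.13), Vim without P966, P471 or P509 (up to 0.076) and Snai1 without P966 (0.11). Cdh2 passed the threshold in 8 of the 27 fits, those without P425, P235, P803, P609, P757, P474, P502 or P503 (adjusted p down to 0.012), and Twist2 in 2, without P235 or P1394. Without both P966 and P471 none of the members was called, and the slope of Prrx1 was 0.35 (adjusted p = 0.059), of Vim 0.26 (0.22), of Snai1 0.11 (0.43) and of Zeb1 -0.34 (0.45).

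P966 and P471 also had high epithelial adhesion scores, 2.56 and 2.12, and the lowest neuroendocrine scores, -2.26 and -3.10. With the epithelial adhesion score as a covariate, Prrx1 (0.43, adjusted p = 0.018) and Vim (0.36, adjusted p = 0.029) were still called, while the slope of Zeb1 was -0.18 (adjusted p = 0.61) and that of Cdh2 -0.11 (adjusted p = 0.80). Within the 19 tumours of lower adhesion score no member was called, and the slopes were 0.33 for Prrx1 (adjusted p = 0.078), 0.26 for Vim (0.30), -0.15 for Zeb1 (0.78) and -0.03 for Cdh2 (0.95). Each slope is per SD of the score over the tumours of its own fit, so sizes are not strictly comparable between fits. Per such SD the slope of Vim was 0.26 both within the 19 tumours and over all 27. Those of Zeb1 and Cdh2 per such SD were smaller in size within the 19. Within the 23 tumours of higher neuroendocrine score, likewise without a call, Prrx1 had a slope of 0.33 (adjusted p = 0.12), Vim 0.26 (0.40), Zeb1 -0.23 (0.83) and Cdh2 -0.06 (0.95). With the neuroendocrine score as a covariate no member was called either, and the slope of Cdh2 turned to 0.04 (adjusted p = 0.9998).

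**Figure D3:**
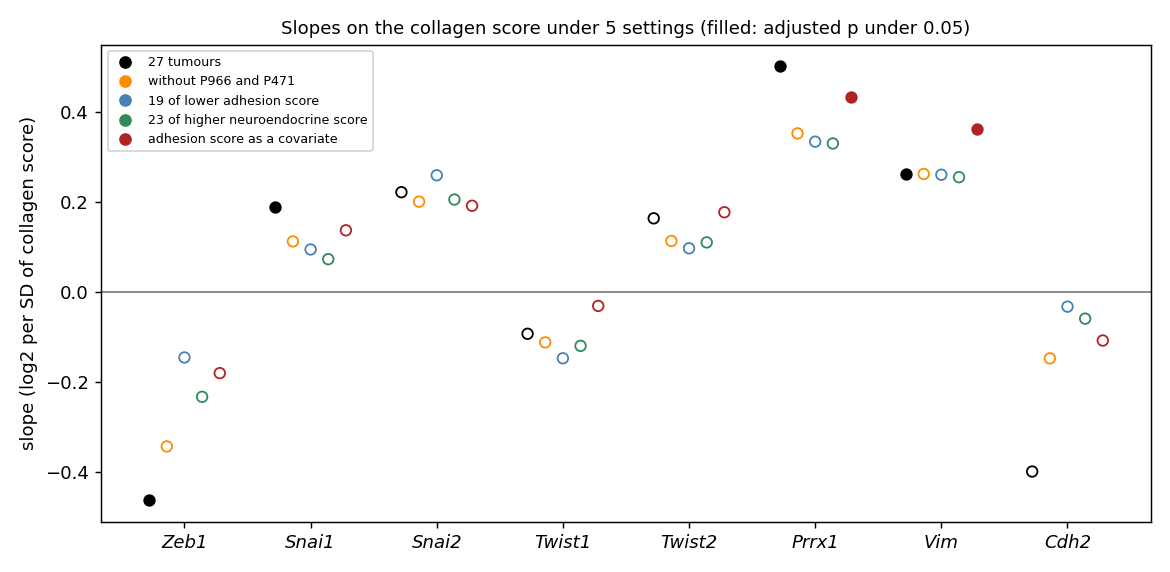
The vertical axis is the slope of each member (log2 per SD of the collagen score) over 27 tumours, without P966 and P471, within 19 or 23 tumours, and with the epithelial adhesion score as a covariate, and filled points have an adjusted p under 0.05. The SD is that of the tumours in each fit, so sizes are not strictly comparable between sets of tumours. Prrx1, Vim, Snai1, Snai2 and Twist2 stay above 0 in all 5 settings and Zeb1, Twist1 and Cdh2 below it, with Cdh2 between -0.40 and -0.03.

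A test of each gene's slope against that of Zeb1 in the same tumours called 6 of 7 members, all but Cdh2. It called 87.5% of all genes, since every difference holds the values of Zeb1, so nothing is read from that count. The difference was 0.96 ± 0.16 for Prrx1 (adjusted p = 3.7e-05) and 0.72 ± 0.13 for Vim (adjusted p = 9.0e-05), and 0.06 ± 0.15 for Cdh2 (adjusted p = 0.69).

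Other genes of the connective tissue rose with collagen. Of 14 fibroblast and matrix genes other than collagens 10 rose and none fell, led by decorin (Dcn, 1.01 ± 0.16), dermatopontin (Dpt, 0.98 ± 0.23), lumican (Lum, 0.81 ± 0.09) and periostin (Postn, 0.78 ± 0.13), with a median slope of 0.53. Between 9 and 11 rose in fits that left out 1 tumour, and 7 without P966 and P471, where 0.320% of all genes were called.

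Genes of TGF-beta signalling, a main inducer of the transition, rose in 5 of 14 cases and fell in none (median slope 0.24). The steepest were Thbs1, which encodes the activator thrombospondin-1 (0.58 ± 0.13, adjusted p = 0.0076), the signal transducer Smad3 (0.50 ± 0.13, adjusted p = 0.017), the receptor Tgfbr2 (0.44 ± 0.10) and the inhibitory Smad7 (0.44 ± 0.14). Between 2 and 6 rose in fits that left out 1 tumour, the fewest without P966 or P471, and none without both. Of 23 other mesenchymal genes 13 rose (median slope 0.31), led by fibronectin (Fn1, 0.82 ± 0.08), the hyaluronan receptor Cd44 (0.81 ± 0.18), Sox9 (0.80 ± 0.18) and Lef1 (0.63 ± 0.19). That count fell to as few as 5 without P966 or P471, and to 2 without both.

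Markers of other stromal cells moved with collagen too, in 8 of 9 endothelial genes (median slope 0.26) and 9 of 12 macrophage genes (0.39), against 1 of 9 smooth muscle genes (0.16) and 0 of 7 T cell genes (0.14). The endothelial score ran from -1.11 in P509 to 0.73 in P1276, and the macrophage score from -1.22 in P803 to 1.16 in P471. So did epithelial genes: 6 of 16 adhesion genes rose, led by Cldn4 (1.20 ± 0.28) and Cdh1 (1.08 ± 0.33), as did 4 of 12 epithelial regulators, while 10 of 15 neuroendocrine genes fell, led by Scg3 (-0.86 ± 0.25) and Scg5 (-0.78 ± 0.19). The adhesion count ran from 0 to 14 when 1 tumour was left out, moving by over 1.5 times without P966, P471, P619, P1276, P803, P1225, P237, P474 or P1394, and the neuroendocrine count from 0 to 12, moving as far without P966 or P471. Without both P966 and P471 none of the adhesion or neuroendocrine genes was called. With the endothelial, macrophage and smooth muscle scores together as covariates no member was called, and the slopes were 0.34 for Prrx1, 0.30 for Snai1, 0.14 for Vim and -0.45 for Zeb1 (adjusted p of 0.78 to 0.84). Which of these cells the transcripts came from was not tested.

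Along the scores of the other stromal cells Prrx1 was the only member called. It rose along the endothelial score by 0.41 ± 0.10 (adjusted p = 0.014), as 1 of 8 members where 4.87% of all genes rose. It rose along the macrophage score by 0.42 ± 0.10 (adjusted p = 0.0091), as 1 of 8 members where 3.11% rose. Both calls were lost without P471 (adjusted p = 0.053 and 0.11). Vim had slopes of 0.21 ± 0.08 (adjusted p = 0.11) and 0.24 ± 0.08 (adjusted p = 0.084) on these scores. Epithelial genes rose along the endothelial score too, 12 of 16 adhesion genes (median slope 0.86) and 6 of 12 epithelial regulators (0.78), while 5 of 15 neuroendocrine genes fell. Along the macrophage score 0 of 16 adhesion genes rose and 4 of 15 neuroendocrine genes fell.

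Along the smooth muscle score none of 8 members was called where 8.00% of all genes were, with 2 members and 4869 genes at an unadjusted p under 0.05 by limma. Cdh2 had a slope of -0.40 ± 0.13 (adjusted p = 0.056) and Prrx1 one of 0.32 ± 0.11 (adjusted p = 0.064). Of all genes 1121 rose and 652 fell, or 1022 and 931 with arrays centred on their medians. The smooth muscle score was highest in P219 (2.20) and P425 (1.97), which also held the skeletal muscle and adipose signal.

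The members were next set against epithelial adhesion genes, which the repressors among them are known to act on. Of the 7 tumours with low Zeb1, 6 are among the 8 of higher adhesion score, and 18 of the 20 with high Zeb1 are among the 19 of lower score. In these 6, Cdh1 was 10.5 in P471, 10.5 in P569, 10.6 in P1469, 10.9 in P966, 11.3 in P1276 and 11.5 in P425. Over all tumours Cdh1 ran from 5.71 in P237 through a median of 7.04 to that value in P425. Cdh1 is itself 1 of the 16 genes of the adhesion score, so its high level in these 6 was set by how they were picked. It was similar in the other 2 tumours of higher score, at 10.5 in P803 and 10.6 in P219, where Zeb1 was not low.

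A few tumours stood apart from this pattern. P902 had low Zeb1 (6.40) with Cdh1 at 6.22 and an adhesion score of -1.21, near the lowest. P803 and P219 had adhesion scores of 1.76 each, with Zeb1 at 7.19 and 7.35 inside the higher cluster. P219 is also the tumour with skeletal muscle signal.

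Since the adhesion score split the tumours into separate clusters, slopes were fitted within each. Among the 19 tumours of lower score no member was called where 0.835% of all genes were, and among the 8 of higher score none where 0% were. At an unadjusted p under 0.05 the limma fits held 2006 and 2758 genes, among them Cdh2 in the first (-0.12 ± 0.05, adjusted p = 0.38) and Snai1, Twist2, Vim and Cdh2 in the second. Zeb1 had a slope of 0.03 ± 0.10 (adjusted p = 0.97) within the 19 tumours and of -0.28 ± 0.25 (adjusted p = 0.74) within the 8, where Cdh2 had one of -0.64 ± 0.27 (adjusted p = 0.38). The relation of Zeb1 to adhesion genes was thus seen between clusters of tumours, and inside them its slopes did not pass the test.

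**Figure D4:**
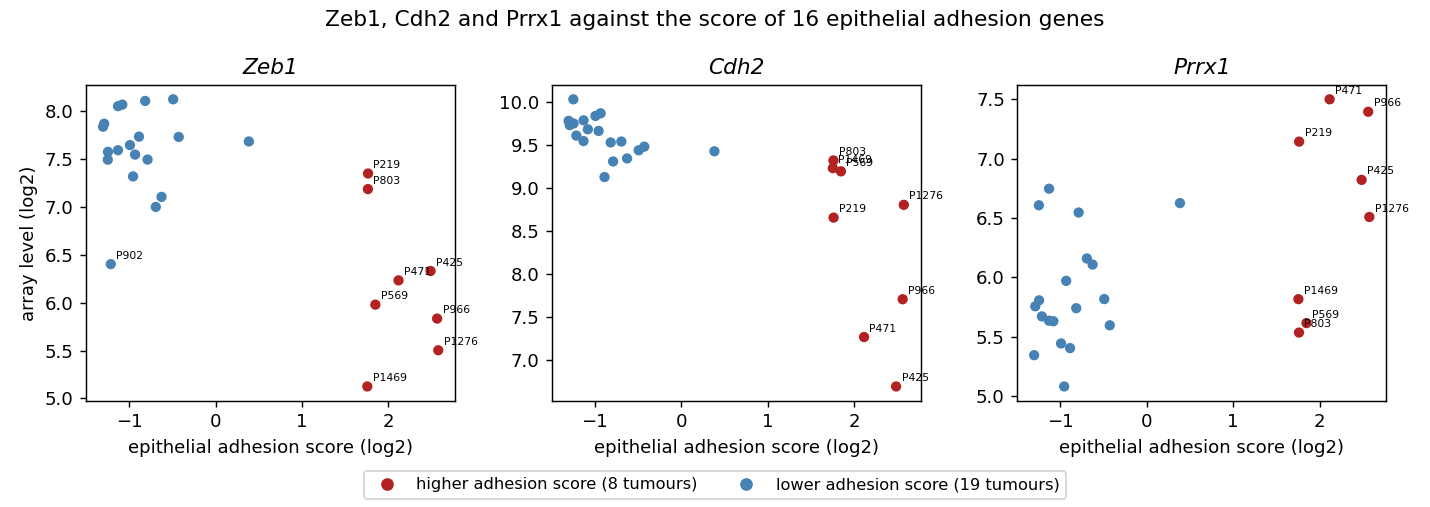
The horizontal axes are the epithelial adhesion score (log2) and the vertical axes the array level (log2) of Zeb1, Cdh2 and Prrx1 in 27 tumours, with the 8 tumours of higher score and P902 labelled. Low Zeb1 is found in 6 of the 8 labelled tumours of higher score and in P902, low Cdh2 in 3, and Prrx1 spans 5.54 to 7.50 among the 8.

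Zeb1 itself, used as the measure in its higher cluster of 20 tumours, called 0 of 7 other members. It called 1 gene of all (0.00451%), Scai, a suppressor of invasion that acts on integrin expression. By limma 2849 genes and 0 members had an unadjusted p under 0.05. After quantile normalization 0 genes were called. In the lower cluster of 7 Zeb1 called 0 of 7 members and 0% of all genes, with 527 genes and 0 members at an unadjusted p under 0.05. The median slope of the 16 adhesion genes along Zeb1 was -0.33 in the 20 tumours and -0.58 in the 7, that of 12 epithelial regulators -0.33 and -0.48, with no gene of either list called. That of the 8 collagens was -0.15 and -0.06. Cdh2 had a slope of 0.08 ± 0.07 (adjusted p = 0.65) along Zeb1 in the 20 tumours.

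The miR-200 genes were brightest in P425 in all 4 cases, where Zeb1 was low at 6.33 and Cdh2 at its lowest. Mir200b ran from 5.27 in P1394 through 6.05 to 10.5 in P425, and Mir200a from 4.95 in P311 through 5.29 to 7.89. Mir200c ran from 2.93 to 6.51 and Mir141 from 2.82 to 4.59, below the array median in 25 and 27 tumours. P311, with the lowest Mir200a, had the highest Zeb1. Other tumours went differently. P471 and P902, of the lower Zeb1 cluster, had Mir200b at 5.80 and 5.82 and Mir200c at 3.31 and 3.32. These lie below the medians of 6.05 and 3.44, while the rest of that cluster lay above both. P803, of the higher Zeb1 cluster, had Mir200b at 6.49 and Mir200c at 4.71. Along Zeb1 in the 20 tumours of its higher cluster none of the 4 miR-200 genes was called (median slope -0.14). P425 also held adipose signal, and its part in these values was not tested.

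The genes whose pattern was most like that of Zeb1 over 27 tumours, among 14659 genes, were Cpeb1, Gabra5, Eny2, Parp8 and Zhx1. Since the clusters of Zeb1 set a correlation over all tumours, it is given within the higher cluster of 20, where r was 0.573, 0.677, 0.586, 0.355 and 0.603. The most opposed genes were Ovol1, a zinc finger repressor that maintains epithelial identity, Ninj1 and Tmc6, with r of -0.361, -0.517 and -0.624 in the same 20. Ovol1 ran from 4.52 in P268 through 5.01 to 7.36 in P966, below the array median in 22 tumours. These genes were ranked by the correlation, which is a description of 27 tumours of mixed cell content.

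Cdh2 was described within its higher cluster of 24 tumours. No other member was called along it, 0 of 7, where 8.28% of all genes were, with 1 member, Zeb1, at an unadjusted p under 0.05 by limma (0.39 ± 0.14, adjusted p = 0.088) and 5161 genes. Of all genes 703 rose and 1134 fell, or 873 and 868 with arrays centred on their medians. All 16 adhesion genes fell with a median slope of -1.01, against -0.0017 for all genes. The steepest were desmoplakin (Dsp, -1.42 ± 0.28), Cdh1 (-1.40 ± 0.24), Rab25 (-1.39 ± 0.26) and keratin 8 (Krt8, -1.35 ± 0.23), with adjusted p of 0.0015 to 0.0030.

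Epithelial regulators fell in 11 of 12 cases, led by Tmem30b (-1.51 ± 0.29), the splicing factor Esrp1 (-1.27 ± 0.24), the membrane protease St14 (-1.25 ± 0.24) and the transcription factor Elf3 (-1.22 ± 0.21). Neuroendocrine genes rose in 5 of 15, among them Stmn2 (0.82 ± 0.24), Scg3 (0.50 ± 0.13) and Scg5 (0.44 ± 0.10). Smooth muscle genes fell in 6 of 9, led by Cnn1 (-0.76 ± 0.16) and Des (-0.71 ± 0.19). None of the 8 collagens and none of the 14 fibroblast genes was called (median slopes -0.14 and -0.21).

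The count of adhesion genes lay between 15 and 16 when any 1 tumour was left out. Without both P219 and P1276, the 2 tumours of the 24 with the lowest Cdh2, no adhesion gene was called, the median slope was -0.68 and 0.0135% of all genes were called. Within the 19 tumours of lower adhesion score the median slope was -0.23, with no call. Cdh2 was scaled anew in each set of tumours, so these slopes are per unlike SDs and their sizes are not compared. P219 and P1276 are both among the 8 of higher adhesion score, and P219 had the highest smooth muscle score of all. Without P1276 alone, which leaves the 23 tumours of higher neuroendocrine score, 15 of 16 adhesion genes fell (median slope -0.80).

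Genes most like Cdh2 over 27 tumours were Trim37, Zfp354c, Dock3, Elapor2 and Shank1, with r of 0.796, 0.773, 0.622, 0.675 and 0.676 within the 24. The most opposed were Lgals12, Icosl and Rab19, with r of -0.738, -0.644 and -0.521. Without P219 and P1276 these became 0.552, 0.593, 0.306, 0.367 and 0.410, and -0.518, -0.462 and -0.148. Dock3 and Shank1 are known from neurons, and Lgals12, a galectin, from adipocytes. Cdh2 was lowest in P425, the tumour of the highest adipose score.

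Along the neuroendocrine score in its higher cluster of 23 tumours, 0 of 8 members and 0% of all genes were called, with 1 member and 1964 genes at an unadjusted p under 0.05 by limma. The member was Cdh2, with a slope of 0.19 ± 0.05 (adjusted p = 0.28). In the 4 tumours of lower neuroendocrine score Cdh2 was 6.69 in P425, 7.27 in P471, 7.71 in P966 and 8.80 in P1276, all below its median of 9.48. Prrx1 in the same tumours was 6.82, 7.50, 7.39 and 6.51, all above its median of 5.82.

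Along the mitosis score Cdh2 rose by 0.53 ± 0.12 (adjusted p = 0.0014) and Zeb1 by 0.41 ± 0.14 (adjusted p = 0.035), 2 of 8 members where 12.0% of all genes rose. P425 had the lowest mitosis score of all, -1.93, and the next was P803 at -0.44. The score was scaled anew without P425, so slopes with and without this tumour are per unlike SDs and their sizes are not compared. Without P425 the slope of Cdh2 was 0.20 (adjusted p = 0.27), so its call was lost. Zeb1 lost its call without P1276, P1225, P237 or P500 (adjusted p up to 0.060). Adhesion genes fell along mitosis in 15 of 16 cases and smooth muscle genes in 7 of 9, where 13.1% of all genes fell. Without P425 these counts were 14 and 0 (median slopes -0.80 and -0.17), where 6.20% fell.

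Prrx1 formed 1 continuous group and was used as the measure over all 27 tumours. Snai1 (0.18 ± 0.05, adjusted p = 0.012) and Vim (0.24 ± 0.08, adjusted p = 0.031) rose along it, 2 of 7 members where 9.09% of all genes rose. Cdh2 fell (-0.52 ± 0.12, adjusted p = 0.0028), 1 of 7 where 7.42% fell. Zeb1 had a slope of -0.28 ± 0.15 (adjusted p = 0.23). The call for Cdh2 was kept in each fit that left out 1 tumour (adjusted p of at most 0.031), that for Snai1 was lost without P966 (0.089) and that for Vim without P966, P471 or P509 (up to 0.092). Without both P966 and P471 no member was called, with slopes of -0.28 for Cdh2 (adjusted p = 0.20), 0.10 for Snai1 (0.29) and 0.24 for Vim (0.12).

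Along Prrx1 all 8 collagens rose (median slope 0.46), led by Col6a1 (0.53 ± 0.12) and Col3a1 (0.51 ± 0.10), and 11 of 14 fibroblast genes (0.49), led by Dcn (1.02 ± 0.16) and Dpt (0.95 ± 0.23). Markers of other cell types rose as well, 7 of 9 endothelial genes (median slope 0.24), 8 of 12 macrophage genes (0.35) and 5 of 7 T cell genes (0.16). Leaving out 1 tumour left 7 or 8 collagens and 9 to 12 fibroblast genes called. Without P966 and P471 these counts were 3 and 6, where 2.14% of all genes were called, with median slopes of 0.32 and 0.38. Within the 19 tumours of lower adhesion score no gene of either list was called, with median slopes of 0.36 and 0.39.

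Epithelial genes rose along Prrx1 as well, 11 of 16 adhesion genes (median slope 0.83), led by Cldn4 (1.41 ± 0.24) and Cdh1 (1.10 ± 0.33), and 10 of 15 neuroendocrine genes fell, led by Scg3 (-0.99 ± 0.23) and Chga (-0.97 ± 0.16). The adhesion count fell to as few as 3 without P966 or P471, and was 1 without both. Within the 19 tumours of lower adhesion score the median slope of the adhesion genes was 0.11, with no call. Of the TGF-beta genes 5 of 14 rose, led by Smad3 (0.60 ± 0.12) and Smad7 (0.52 ± 0.13). With the collagen score as a covariate no member was called along Prrx1, and the slope of Cdh2 was -0.53 (adjusted p = 0.16), of Snai1 0.07 (0.66) and of Vim 0.10 (0.73).

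**Figure D5:**
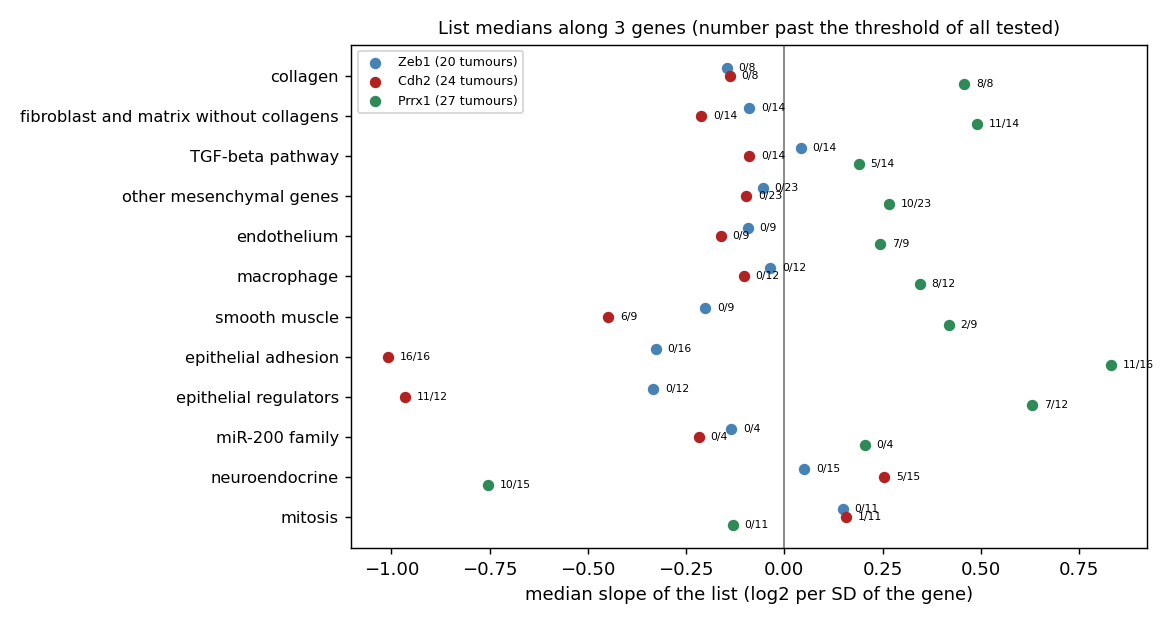
The horizontal axis is the median slope of each gene list (log2 per SD of the gene) along Zeb1 in 20 tumours, Cdh2 in 24 and Prrx1 in 27, and the small figures give how many of the genes tested passed the threshold in either direction. Collagen and fibroblast lists lie above 0 along Prrx1 alone, and the epithelial lists lie near -1 along Cdh2.

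The genes most like Prrx1 were Fam114a1, Tfpi, Itgav, Cnn2 and Calcrl, with r of 0.870, 0.869, 0.865, 0.848 and 0.843 over 27 tumours, and 0.821, 0.818, 0.807, 0.747 and 0.852 without P471 and P966. Tfpi encodes an inhibitor of coagulation made by endothelium, Itgav an integrin chain and Calcrl a receptor of endothelial cells. The most opposed were Tmem17 (-0.849), Dennd6b (-0.817) and Dlg4 (-0.805), the last a scaffold of synapses. Those most like Vim were Fstl1 (0.796), Rhoj (0.753), Rhoc (0.739), Slc12a4 (0.733) and Gja1 (0.728), of which Fstl1 is a secreted glycoprotein of mesenchymal cells and Rhoj a GTPase of endothelium. Without P509 and P803 their r was 0.724, 0.583, 0.681, 0.735 and 0.625. The most opposed to Vim over 27 tumours were Ephb6 (-0.730), Qsox2 (-0.718) and Marchf8 (-0.709).

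The remaining members were treated in the same way. Snai1 was most like Btc (0.853), Mir3109 (0.852), Hs3st1 (0.837), Amacr (0.814) and Ngfr (0.812), and most opposed to Tfap2a (-0.823), Ppp6r2 (-0.800) and Pde8b (-0.778). Without P966 and P1276 the r of Btc, which encodes betacellulin, was 0.684. For Mir3109, Hs3st1, Amacr and Ngfr it was 0.664, 0.626, 0.668 and 0.585. Snai2 was most like Nrg1, a ligand of ErbB receptors (0.715), Cep295nl (0.614), B3gnt8 (0.612), Akap13 (0.612) and Ptger4 (0.602), and most opposed to Prtg (-0.686), Npc1l1 (-0.657) and Grm8 (-0.656).

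Twist1 was most like Hmx3 (0.743), Ccdc15 (0.726), Spon2 (0.724), Mir489 (0.719) and Wfdc1 (0.702). Without P1394 and P1225 the r of Hmx3 was 0.288, that of Mir489 0.281 and that of Wfdc1 -0.253, so these likenesses rest on those tumours, while Spon2 kept 0.611. The most opposed genes were Lrrc30 (-0.681), Atp5d (-0.650) and Mir3058 (-0.646). Twist2, below the array median in every tumour, was most like Srms (0.728), Trabd2b (0.713), Crym (0.692), Mir107 (0.659) and Olfr1411 (0.656), and most opposed to Ccdc77 (-0.736), Scrn1 (-0.734) and Tsnax (-0.727). Without P425 and P803 r was 0.668 for Srms, 0.641 for Trabd2b, 0.670 for Crym, 0.742 for Mir107 and 0.580 for Olfr1411.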

How the data were processed

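Total RNA of 27 snap-frozen tumours, 1 per animal, was extracted and labelled with biotin, per the labels. Nothing in the labels gives a batch. The p-values measure the spread between the arrays of these tumours, and any unlabelled batch would be part of that spread. The authors deposited log2 values, in 41345 rows and 27 columns. Partek was used to make them, per the submitters' processing notes. Its version, the background correction and the way arrays were normalized are not stated there. Precision is limited by the number of arrays, as there is no read depth. Of the rows, 23521 had 1 gene symbol in the platform's annotation and were used, 1814 had several and 16010 are unnamed here. Of the 22180 gene symbols, 22139 were found in the RefSeq table. The platform's genome build is not given, so gene coordinates are not used, and the promoters and miRNA genes carry the coordinates of RefSeq's GRCm38.p6.

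Genes were fitted on each score or gene, scaled to an SD of 1, by limma 3.58.1 in R 4.3.3 (lmFit, then eBayes with trend), leaving out the genes of the score, with Benjamini-Hochberg adjustment over all genes at 0.05. The scaling was done over the tumours of each fit, so slopes from different sets of tumours are per unlike SDs. Where mclust 6.1.1 found 2 clusters (a BIC difference over 6, Ashman's D over 2, at least 3 tumours in the smaller), fits were made within clusters of at least 6 tumours. The fit was tested on simulated data. The text names every member, the 5 most and 3 least correlated genes of each, and of each list 2 to 4 genes with the largest slope. Correlations were ranked over 27 tumours among genes that reach the median of all rows, leaving out Rik, Gm, LOC, BC and accession symbols, and are printed within clusters for Zeb1 and Cdh2. Scai, the promoters shown and the values of single tumours were picked after their values had been seen. The members and lists were chosen with earlier results of these data known. Alternatives were quantile normalization, median centring, a filter on low values, other scores, covariates, single tumours left out, and P425, P219 and P268 left out. The fits within 19 or 23 tumours, with the neuroendocrine score as a covariate, without P966 and P471, without other pairs of tumours, along mitosis without P425, and of Zeb1 and Cdh2 over all tumours were added after seeing the data.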

Additional observations from a re-analysis of the deposited data

How the results depend on the processing

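Counts of called members depend on few tumours and on covariates. Of 8 members 4 were called along the collagen score, 1 to 6 when any 1 tumour was left out, 0 without P966 and P471, 0 with the endothelial, macrophage and smooth muscle scores as covariates, 2 with the adhesion score, 0 with the neuroendocrine score, 1 with Col1a1, Col1a2 and Col3a1 alone, and 0 within the 19 or the 23 tumours. Along the endothelial score 1 was called (0 to 3 without single tumours, 2 after quantile normalization), and along the macrophage score 1 (0 to 2, and 2 without P425, P219 and P268). Along the smooth muscle score 0 were called (0 to 2, and 1 with arrays centred on their medians), and along the mitosis score 2 (1 to 2, and 1 without P425, P219 and P268, where Cdh2 had a slope of 0.17). Along Cdh2 0 were called in its higher cluster (0 to 1, 1 without P425, P219 and P268), and along Prrx1 3 (1 to 4, 0 with the collagen score as a covariate, 0 without P966 and P471). The single tumours whose omission moved these counts by over 1.5 times were P966 and P471 for collagen, P471, P425, P235, P803, P902, P509, P474 and P503 for endothelium, P471 and P425 for macrophages, P966, P471 and P235 for smooth muscle, P425, P1276, P1225, P237 and P500 for mitosis, P219 for Cdh2 and P966 for Prrx1. The slope tested against that of Zeb1 called 6 (5 to 6 without single tumours).

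Fits that pooled the clusters called more members: 4 along the adhesion score, where 31.5% of all genes were called, 4 along the neuroendocrine score (25.4%), 2 along Zeb1 (25.3%) and 3 along Cdh2 (29.0%). These pool separate clusters. In fits within clusters of the adhesion, neuroendocrine and Zeb1 measures, 0 members were called with any single tumour left out. Along collagen Cdh2 was also called after quantile normalization (adjusted p = 0.046), without P425, P219 and P268 (0.014), with the filter on low values (0.038), with genes scaled to an SD of 1 (0.044) and with the fibroblast list as the score (0.017), and Twist2 after quantile normalization (0.044). No slope called in the main fits changed sign. That of Cdh2 along collagen, not called in the main fit, turned to 0.04 with the neuroendocrine score as a covariate. The cause of these changes was not tested. Snai1, Twist2, Mir200c and Mir141 lie mostly below the array median, and the sources used here give no background level to set them against.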
